A study of Homo sapiens with 12 samples.

Results

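The genes described here are 10 receptor tyrosine kinases, EGFR, ERBB2, ERBB3, MET, AXL, FGFR1, IGF1R, INSR, EPHA2 and DDR1. They were taken by symbol from the first column of the 12 count tables, and all 10 were found among 16384 genes listed. The cells were MDA-MB-231, an established human line of triple-negative breast cancer, labelled wild type in every group. The control group received DMSO, the CAR group 10 µmol/L of CAR (cardamonin, a plant chalcone, by the title of the series) and the JQ1 group 25 µmol/L of JQ1, an inhibitor of BET bromodomain proteins. The Combination group received both agents at these doses, and each group held 3 libraries. The time of treatment is not given in the labels. All values come from 1 cell line, and the labels do not say whether the replicates were separate cultures, so a p-value here reflects the spread among these samples, which may be technical.

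Receptor tyrosine kinases cross the cell membrane and carry a kinase domain on the inner side. Binding of a ligand brings receptors together, they phosphorylate each other on tyrosines, and adaptor proteins such as GRB2 and SHC1 dock there and pass the signal to the RAS-ERK and PI3K-AKT pathways. Phosphatases, ubiquitin ligases such as CBL and endosomal sorting end the signal, and in breast cancer cells without hormone receptors these kinases are known for their roles in growth, survival and motility.

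Library totals ran from 17449715 to 19754456 counts, and levels below are counts per 1000000 library counts (CPM), with the SD over 3 libraries. The line's mesenchymal markers (VIM, CD44, CAV1 and SPARC, 4 of 4 above 3 counts in every library) summed to 4070 to 4199 CPM in DMSO and 1233 to 1326 CPM in Combination. The luminal markers ESR1, PGR, CDH1, EPCAM and GATA3 summed to 25.5 to 26.6 CPM in DMSO, nearly all of it from EPCAM and GATA3. A pair of libraries stood apart. In DMSO replicate 3 the deviation from the other DMSO libraries fell with the length of the gene (Spearman's rho across 6056 genes -0.637), against 0.559 and 0.540 in DMSO replicates 1 and 2, which partly mirror it, and -0.203 to 0.233 in the 9 drug-treated libraries. Compared with replicates 1 and 2 it gave 10.6 and 12.6 for the chi-square over its degrees of freedom, and other pairs within a group 1.46 to 2.31. In Combination replicate 1 the 16 liver markers summed to 184 CPM, with 16 of 16 above 3 counts and albumin (ALB) at 78.3 CPM, against summed levels of 1.63 to 11.1 CPM in the other 11 libraries.

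The 10 receptors differed widely in level. Per kilobase of annotated exon, AXL stood highest in DMSO at 295 ± 7.69 CPM per kilobase (SD, n = 3). EPHA2 followed at 76.4 ± 2.82, EGFR at 32.5 ± 4.62 and MET at 23.8 ± 2.67 CPM per kilobase. ERBB2 was at 11.6 ± 0.484, FGFR1 at 9.85 ± 0.428 and DDR1 at 9.50 ± 0.351, and the last 2 of these lay within the sum of their SDs. IGF1R was at 5.21 ± 0.523, INSR at 2.33 ± 0.429 and ERBB3 lowest at 0.641 ± 0.0846 CPM per kilobase. ERBB3 was the receptor with the fewest counts, and its lowest library still held 54.

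The summed level of the 10 receptors was 2858 ± 135 CPM in DMSO and 2667 ± 23.7 with CAR. It was 2255 ± 29.2 CPM with JQ1 and 1882 ± 37.4 with both agents. From DMSO to JQ1 the mean of the sum differed by -603 CPM and that of AXL by -793 CPM. From JQ1 to Combination the sum differed by -373 CPM, with -169 CPM from EPHA2 and -155 CPM from AXL. These sums and differences are scaled to library totals alone, without the TMM factors used for the fold changes below. Those factors were highest in DMSO (1.08 in replicate 3) and lowest with both agents (0.921 in Combination replicate 2). Part of each fall in CPM therefore depends on the scaling, and the sums were not computed with these factors. AXL made up 51.9% to 55.1% of the receptors' counts in DMSO and 51.7% to 52.5% in CAR, but 32.1% to 32.4% in JQ1 and 29.8% to 31.1% in Combination. In bulk RNA, fewer cells with a transcript and less of it per cell cannot be told apart. In the order by CPM per kilobase, FGFR1 rose from the sixth place in DMSO to the fourth in JQ1 and Combination, while MET went from the fourth place to the sixth.

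**Figure D1:**
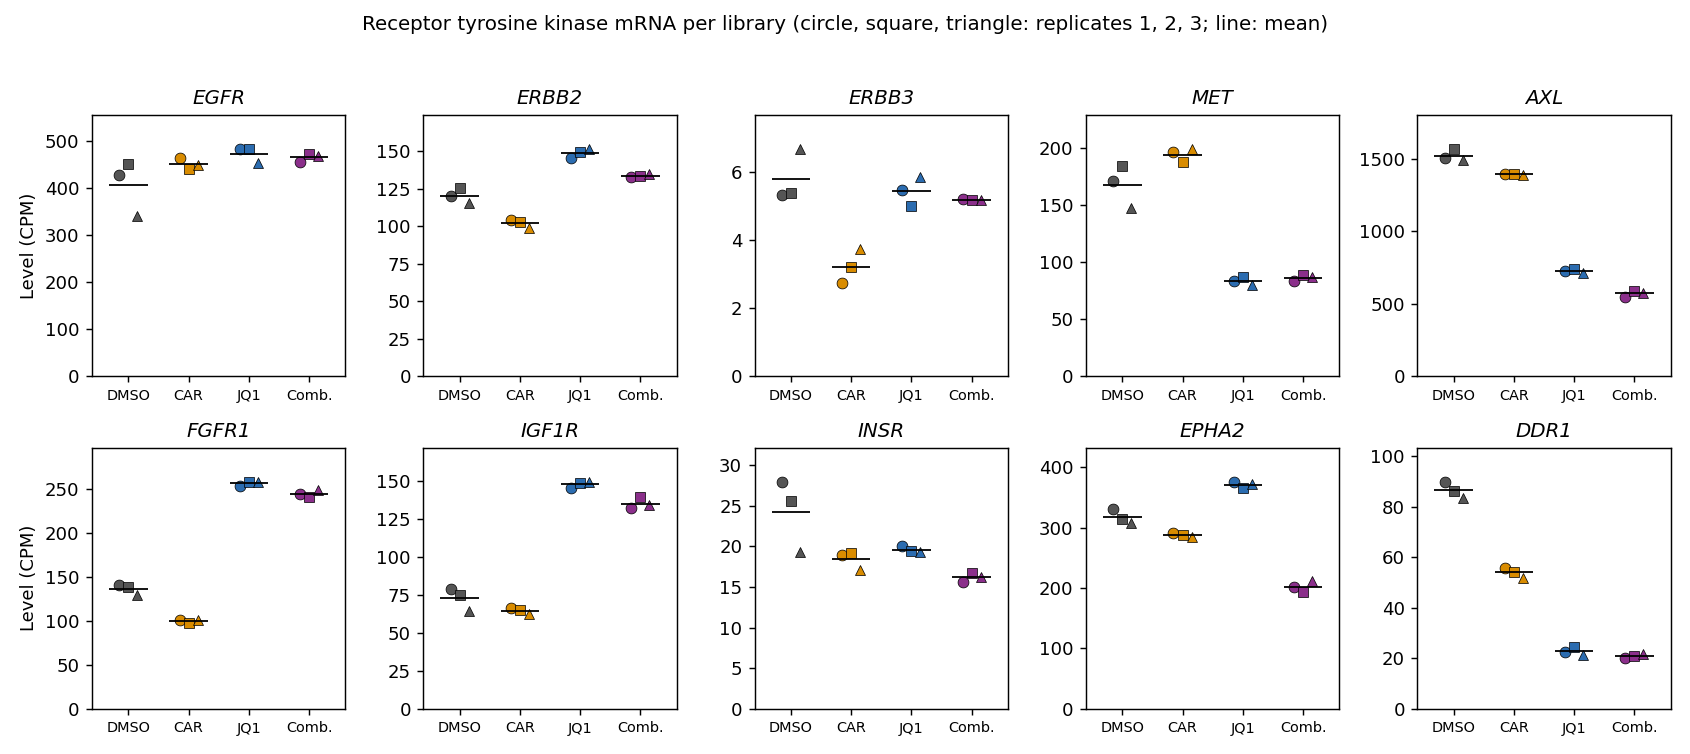
Level of each receptor in CPM (vertical axis, from 0, own scale per gene) in the 4 groups, with 1 point per library and a line at the group mean of 3 libraries. AXL, MET and DDR1 sit lower in JQ1 and Combination than in DMSO, FGFR1 and IGF1R sit higher, and EPHA2 is highest in JQ1 and lowest in Combination.

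Fold changes below come from edgeR's quasi-likelihood test with TMM scaling fitted to all 12 libraries, given as log2 values with a standard error (SE) and a p adjusted by Benjamini-Hochberg over the 12645 genes tested. A gene is called, and said to rise or fall, at an adjusted p under 0.05. All 10 receptors passed the filter on low counts. The TMM factors ran from 0.921 in Combination to 1.08 in DMSO, so fold changes are not the plain ratios of the CPM values. With scaling to total counts the median log2 change of all genes moved from -0.0079 to -0.13 in JQ1, from 0.0015 to -0.21 in Combination (both against DMSO) and from -0.010 to -0.15 in Combination against CAR, and the calls of receptors that this scaling changes are given with the gene or the comparison. The comparisons against DMSO share the 3 DMSO libraries.

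Promoter sequences are shown for 4 receptors whose levels moved in different directions: AXL and MET, which fell with JQ1, IGF1R, which rose, and EPHA2, which rose with JQ1 and fell in Combination. They are the 250 bases before the RefSeq start (GRCh38.p14), read 5′ to 3′ on the gene's strand, at chr19:41218973-41219222 (plus) for AXL, chr7:116671946-116672195 (plus) for MET, chr15:98648289-98648538 (plus) for IGF1R and chr1:16156070-16156319 (minus) for EPHA2. Capitals mark matches on either strand to the motifs searched.
AXL: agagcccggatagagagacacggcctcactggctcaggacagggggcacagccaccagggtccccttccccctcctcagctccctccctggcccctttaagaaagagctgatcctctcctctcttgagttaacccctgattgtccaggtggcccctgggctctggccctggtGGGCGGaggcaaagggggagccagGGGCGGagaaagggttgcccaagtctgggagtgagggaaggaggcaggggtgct
MET: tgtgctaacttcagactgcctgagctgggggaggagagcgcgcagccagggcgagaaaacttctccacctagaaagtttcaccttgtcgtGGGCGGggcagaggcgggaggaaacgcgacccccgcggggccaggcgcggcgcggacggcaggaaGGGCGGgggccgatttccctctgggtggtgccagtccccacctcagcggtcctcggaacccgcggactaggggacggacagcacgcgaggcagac
IGF1R: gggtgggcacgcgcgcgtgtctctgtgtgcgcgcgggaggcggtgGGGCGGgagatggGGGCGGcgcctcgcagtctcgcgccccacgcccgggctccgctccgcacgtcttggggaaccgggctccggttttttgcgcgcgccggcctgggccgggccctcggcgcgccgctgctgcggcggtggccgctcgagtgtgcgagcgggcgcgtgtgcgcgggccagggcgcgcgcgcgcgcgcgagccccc
EPHA2: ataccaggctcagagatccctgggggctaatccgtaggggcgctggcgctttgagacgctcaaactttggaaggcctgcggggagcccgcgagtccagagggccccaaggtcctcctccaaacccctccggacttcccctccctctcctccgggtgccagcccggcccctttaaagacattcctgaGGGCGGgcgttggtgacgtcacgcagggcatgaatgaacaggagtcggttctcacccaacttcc
The motifs searched were the GC box (GGGCGG), the E-box (CACGTG), the AP-1 site (TGANTCA), the core of the antioxidant response element (TGACNNNGC), the TATA box (TATAAA) and the CCAAT box (CCAAT). The GC box was the motif found in these windows, in 2 places each for AXL, MET and IGF1R and in 1 place for EPHA2. Of 35116 such windows over all genes, 42.6% held a GC box, 6.34% an E-box, 6.57% an AP-1 site, 10.9% an antioxidant response core, 10.7% a TATA box and 32.01% a CCAAT box. The GC content was 64.4% for AXL, 68.4% for MET, 81.2% for IGF1R and 63.2% for EPHA2, against a median of 58% over all windows. EGFR and INSR held a GC box too, while ERBB2, which rose with JQ1, held none and had an AP-1 site and a CCAAT box. In all, 8 of the 10 receptors had a window in the RefSeq table, and that of DDR1 was not used because it lay away from the annotated start.

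EGFR, the receptor for epidermal growth factor (chromosome 7, 55019021 to 55211628, plus strand), changed little. Its level was 427, 451 and 341 CPM in the DMSO libraries and 465, 442 and 449 with CAR. It was 483, 483 and 454 CPM with JQ1 and 456, 473 and 469.7 with both. DMSO replicate 3 was the lowest of the 12 libraries, and the CAR range overlapped that of DMSO while JQ1 and Combination lay above it. EGFR rose by log2 0.34 ± 0.08 (SE) in JQ1 (adjusted p = 0.00165, edgeR) and by 0.40 ± 0.08 in Combination (adjusted p = 0.000414). The rise in CAR, 0.22 ± 0.08 (adjusted p = 0.0352), was lost without CAR replicate 1, 2 or 3 (adjusted p = 0.0927, 0.0519 and 0.0651), with total count scaling (log2 0.15) and without the filter on low counts (adjusted p = 0.0595). Without DMSO replicate 3 it was smaller but passed (log2 0.10, adjusted p = 0.0027), and the JQ1 change was 0.23. EGFR shares 186 exon bases with the antisense gene EGFR-AS1, which was not analysed here, and whether the counting used strand is not given in the sources used here.

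ERBB2, the family member with no known ligand of its own, which pairs with the other ERBB receptors (chromosome 17, 39687914 to 39730426, plus strand), moved in opposite directions with the agents. The DMSO libraries held 119.9, 125 and 115 CPM and the CAR libraries 104, 103 and 99.0. In JQ1 the levels were 145, 149 and 151 CPM, and in Combination 133, 133 and 135. In CPM, which leaves out the TMM factors, the 4 groups did not overlap. Combination against JQ1 was not called (log2 -0.067 ± 0.040, adjusted p = 0.175, edgeR). ERBB2 fell in CAR (log2 -0.17 ± 0.04, adjusted p = 0.00116, edgeR) and rose in JQ1 (0.43 ± 0.04, adjusted p = 2.14e-09) and in Combination (0.36 ± 0.04, adjusted p = 3.42e-08). It shares 571 exon bases with MIEN1 (35.8 to 133 CPM over the libraries) and 194 with PGAP3 (5.56 to 12.7 CPM), both on the opposite strand, so reads in those bases cannot be assigned to 1 gene without knowing the strand setting.

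ERBB3, which has a weak kinase of its own, binds neuregulins and recruits PI3K (chromosome 12, 56076799 to 56103505, plus strand), fell in CAR alone and not in the groups that held JQ1. Its level was 5.33, 5.38 and 6.68 CPM in DMSO and 2.73, 3.20 and 3.73 CPM in CAR, with no overlap. It was 5.47, 5.01 and 5.85 CPM in JQ1 and 5.21, 5.19 and 5.19 CPM in Combination. The log2 change was -0.79 ± 0.14 in CAR (adjusted p = 4.64e-05, quasi-likelihood test), 0.026 ± 0.12 in JQ1 (adjusted p = 0.852) and 0.048 ± 0.13 in Combination (adjusted p = 0.727). The sign of the last 2 values depends on the scaling: with total counts they were -0.094 and -0.16, also not called. The level was set by few reads, 54 to 127 counts per library.

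MET, the receptor for hepatocyte growth factor (chromosome 7, 116672390 to 116798386, plus strand), roughly halved in both groups that received JQ1. Its level was 171, 185 and 148 CPM in DMSO and 196, 188 and 199 CPM in CAR. It was 83.1, 87.4 and 79.9 CPM in JQ1 and 83.4, 88.6 and 86.6 CPM in Combination, far below every library without JQ1. MET fell with log2 changes of -0.89 ± 0.06 in JQ1 (adjusted p = 2.19e-10, quasi-likelihood test) and -0.75 ± 0.06 in Combination (adjusted p = 2.25e-09). In CAR it rose by 0.28 ± 0.06 (adjusted p = 0.000808), and by 0.19 without DMSO replicate 3, the DMSO library with the lowest level.

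AXL, a TAM family receptor that binds GAS6 and is known for its link to invasive behaviour (chromosome 19, 41219203 to 41261766, plus strand), fell most when both agents were present. The DMSO libraries held 1501, 1566 and 1493 CPM and the CAR libraries 1394, 1394 and 1387. In JQ1 the levels were 727, 739.8 and 713 CPM, and in Combination 548, 591 and 577. No group overlapped another. AXL fell with log2 changes of -0.95 ± 0.04 in JQ1 (adjusted p = 2.73e-16, quasi-likelihood test) and -1.20 ± 0.04 in Combination (adjusted p = 3.91e-18). Combination lay below JQ1 by log2 -0.26 ± 0.04 (adjusted p = 4.22e-06). In CAR the change of -0.063 ± 0.036 was not called (adjusted p = 0.138), though it was without DMSO replicate 3 (-0.077, adjusted p = 0.0111), under total count scaling (-0.13, adjusted p = 0.00388) and upper-quartile scaling (-0.095, adjusted p = 0.0284).

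FGFR1, a receptor for fibroblast growth factors (chromosome 8, 38400215 to 38468834, minus strand), fell with CAR and rose with JQ1. Its level was 141, 139 and 129.6 CPM in DMSO and 101, 96.9 and 100.4 with CAR. It was 253, 258 and 258 CPM with JQ1 and 245, 240.3 and 249 with both agents. In CPM, which leaves out the TMM factors, the 4 ranges did not overlap. FGFR1 fell by log2 0.39 ± 0.04 in CAR (adjusted p = 4.05e-08, quasi-likelihood test) and rose by 1.03 ± 0.04 in JQ1 (adjusted p = 1.83e-16) and 1.05 ± 0.04 in Combination (adjusted p = 1.15e-16). Added to JQ1, CAR changed it by 0.019 ± 0.037 (adjusted p = 0.685), a value that turned to -0.068 with total count scaling and passed as higher with a correction for gene length (0.12, adjusted p = 0.00341). The gene shares 138 exon bases with LETM2 on the opposite strand, which stood at 1.37 to 21.4 CPM.

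IGF1R, the receptor for insulin-like growth factors (chromosome 15, 98648539 to 98964530, plus strand), roughly doubled with JQ1. The DMSO libraries held 78.7, 74.5 and 64.5 CPM and the CAR libraries 66.2, 65.1 and 62.2. In JQ1 it was at 145, 148 and 149 CPM and in Combination at 132, 139 and 134. The CAR range overlapped that of DMSO, and JQ1 and Combination lay above both. IGF1R rose by log2 1.14 ± 0.05 in JQ1 (adjusted p = 1.5e-14, quasi-likelihood test) and 1.10 ± 0.06 in Combination (adjusted p = 2.66e-14). The CAR change of -0.11 ± 0.06 was not called (adjusted p = 0.123), but was without DMSO replicate 3 (-0.19, adjusted p = 0.000289), under total count scaling (-0.17, adjusted p = 0.0131) and upper-quartile scaling (-0.14, adjusted p = 0.0397).

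INSR, the insulin receptor and closest relative of IGF1R (chromosome 19, 7112255 to 7294034, minus strand), did not follow it. Its level was 28.0, 25.6 and 19.3 CPM in DMSO, with replicate 3 apart from the other two. With CAR it was 19.0, 19.2 and 17.1 CPM. With JQ1 it was 20.04, 19.4 and 19.4 CPM and with both agents 15.7, 16.7 and 16.2 CPM. The JQ1 range overlapped that of DMSO through replicate 3 alone. INSR fell in CAR (log2 -0.33 ± 0.10, adjusted p = 0.00796, edgeR) and in Combination (-0.38 ± 0.10, adjusted p = 0.00215), while JQ1 gave -0.19 ± 0.10 (adjusted p = 0.0854). Without DMSO replicate 3 the JQ1 change was -0.33 and called (adjusted p = 2.55e-05) and the CAR change -0.48, and without DMSO replicate 1 the CAR call was lost (-0.22, adjusted p = 0.0597). Total count scaling (-0.31), upper-quartile scaling (-0.25) and a correction for gene length (-0.28) also brought the JQ1 change past the threshold.

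EPHA2, a receptor for ephrin-A ligands on neighbouring cells (chromosome 1, 16124337 to 16156087, minus strand), rose with JQ1 alone and fell when CAR was added to it. Its level was 331, 314 and 308 CPM in DMSO and 291, 288 and 285 CPM in CAR. JQ1 held 376, 366 and 372 CPM and Combination 201, 194 and 212 CPM. The ranges of all 4 groups were separate. EPHA2 rose by log2 0.34 ± 0.04 in JQ1 (adjusted p = 2.41e-08, quasi-likelihood test) and fell by 0.44 ± 0.04 in Combination (adjusted p = 4.39e-10). CAR alone gave -0.077 ± 0.038 (adjusted p = 0.0898), which passed without DMSO replicate 3 (-0.10, adjusted p = 0.00393), under total count scaling (-0.14, adjusted p = 0.00367) and upper-quartile scaling (-0.11, adjusted p = 0.02). On top of JQ1, CAR lowered EPHA2 by log2 -0.79 ± 0.04 (adjusted p = 3.75e-13).

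DDR1, which binds collagen (chromosome 6, 30876421 to 30900156, plus strand), showed the largest change of the 10. The DMSO libraries held 89.9, 86.4 and 83.5 CPM and the CAR libraries 55.9, 54.3 and 51.8. JQ1 held 22.6, 24.4 and 21.2 CPM and Combination 20.2, 20.8 and 21.9 CPM. The DMSO and CAR ranges were separate from each other and from both JQ1 groups, which overlapped each other. DDR1 fell with log2 changes of -0.62 ± 0.05 in CAR (adjusted p = 1.75e-09, quasi-likelihood test), -1.81 ± 0.06 in JQ1 (adjusted p = 9.52e-18) and -1.84 ± 0.06 in Combination (adjusted p = 6.99e-18).

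**Figure D2:**
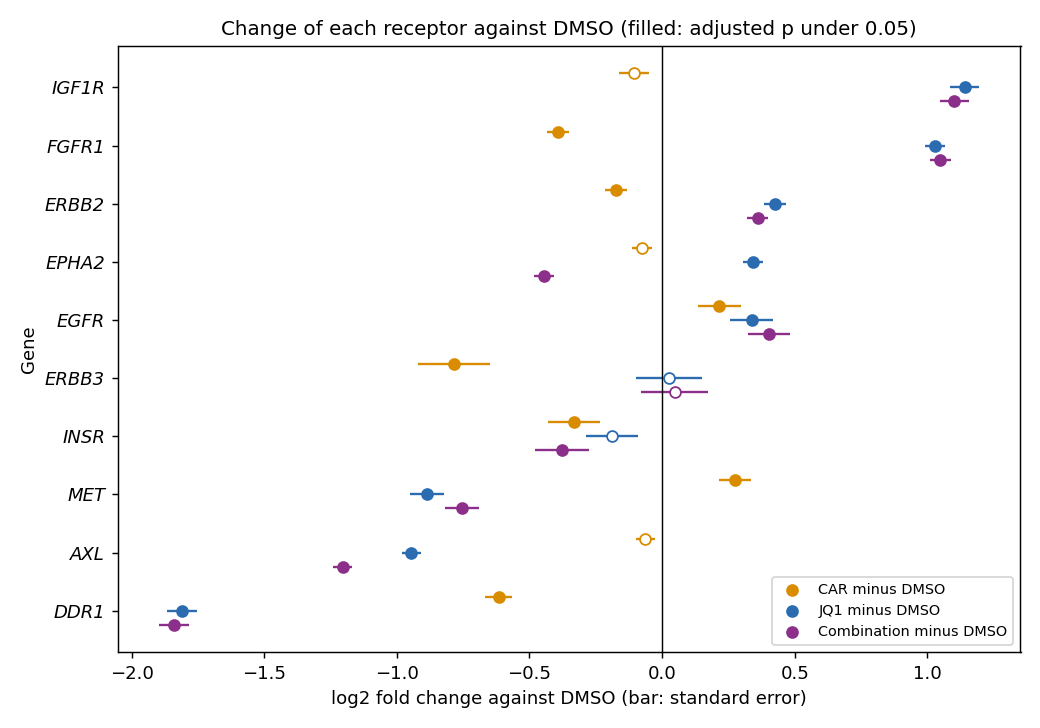
Log2 fold change of each receptor against DMSO (horizontal axis) in CAR, JQ1 and Combination, with the standard error as a bar and filled points where the adjusted p was under 0.05. IGF1R and FGFR1 lie near 1 with JQ1 and with Combination, DDR1 near -1.8, and ERBB3 is called in CAR alone.

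CAR against DMSO asks what the plant compound did alone. MET and EGFR were called higher, 2 of 10, where 27.3% of all genes tested were called higher. ERBB2, ERBB3, FGFR1, INSR and DDR1 were called lower, 5 of 10, where 30.1% of all genes were. The receptors' median log2 change was -0.14, beside -0.020 over all genes. The counts without DMSO replicate 3 were 2 higher and 8 lower, with AXL, IGF1R and EPHA2 added to those lower. Over all genes, 6521 to 7827 were called in CAR with 1 library left out, against 7250 in the main test. The shares of all genes without DMSO replicate 3 are not given here. These counts are therefore no result about the receptors as a group. The changes were small: ERBB3 and DDR1 were the receptors that fell by over log2 0.5.

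JQ1 against DMSO asks what JQ1 did alone at the dose used. EGFR, ERBB2, FGFR1, IGF1R and EPHA2 were called higher, 5 of 10, where 41.5% of all genes were. MET, AXL and DDR1 were called lower, 3 of 10, where 42.2% of all genes were. Both shares lie near or below those of all genes and are no result about these receptors as a group. Their median log2 change was 0.18, beside -0.0079 over all genes. INSR joined those lower when DMSO replicate 3 was left out.

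In Combination against DMSO, 4 of 10 were called higher (EGFR, ERBB2, FGFR1 and IGF1R), where 42.6% of all genes were, and 5 of 10 lower (MET, AXL, INSR, EPHA2 and DDR1), where 42.8% were. ERBB3 was not called. The receptors' median log2 change was -0.16, beside 0.0015 over all genes, and without Combination replicate 1, which carried the liver transcripts, the counts were again 4 and 5.

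**Figure D3:**
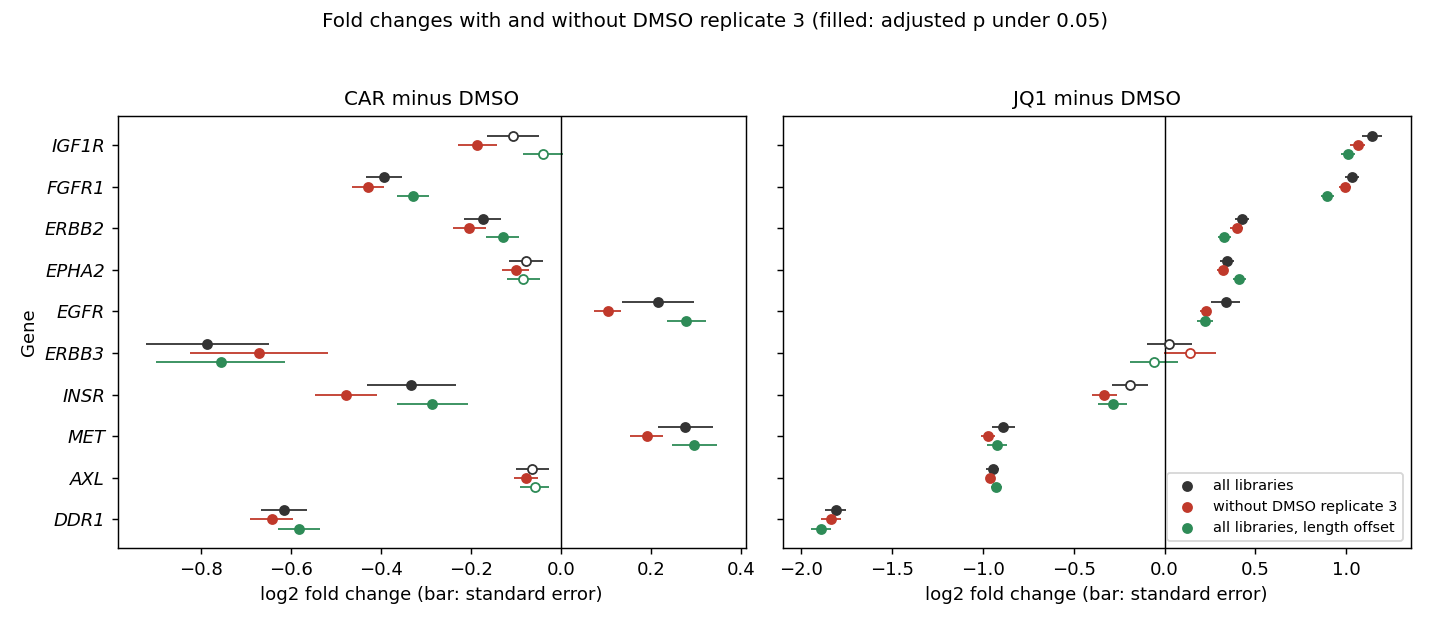
Log2 fold change of each receptor (horizontal axis, bar: standard error) in CAR and in JQ1 against DMSO, from all libraries, without DMSO replicate 3, and from all libraries with a correction for gene length, with filled points where the adjusted p was under 0.05. Without DMSO replicate 3 AXL, IGF1R and EPHA2 in CAR and INSR in JQ1 become filled, and EGFR in CAR moves from 0.22 to 0.10.

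Against JQ1, Combination shows what CAR added. AXL and EPHA2 were called lower, 2 of 10, where 25.9% of all genes were. None was called higher by edgeR's quasi-likelihood test or by DESeq2 (0 of 10, and 0 at an unadjusted p under 0.05 in either), where 26.0% of all genes were called higher. Other fits did call some: with the correction for gene length EGFR (log2 0.15, adjusted p = 0.00424), MET (0.15, adjusted p = 0.0251) and FGFR1 passed as higher, 3 of 10, and in a fit to these 2 groups EGFR (0.063, adjusted p = 0.0349) and MET (0.13, adjusted p = 0.00446) did, with INSR (-0.19, adjusted p = 0.0169) lower. With total count scaling ERBB2 (-0.15, adjusted p = 0.00236), IGF1R (-0.13, adjusted p = 0.0388) and INSR (-0.28, adjusted p = 0.0298) joined those lower, 5 of 10. Under this scaling 4554 of the 12645 genes tested were called lower, against 3275 in the main test. Without DMSO replicate 3, a library outside this comparison that takes part in the estimate of the spread, EGFR (log2 0.068, adjusted p = 0.0284) and MET (0.13, adjusted p = 0.00311) passed as higher and INSR (-0.19, adjusted p = 0.0176) as lower. MET passed as higher without DMSO replicate 2 as well (0.13, adjusted p = 0.0371).

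Against CAR, Combination shows what JQ1 added. ERBB3 rose by log2 0.83 ± 0.14, FGFR1 by 1.44 ± 0.04, IGF1R by 1.21 ± 0.06 and ERBB2 by 0.53 ± 0.04, and with EGFR (0.19 ± 0.08) 5 of 10 were called higher, where 42.4% of all genes were. MET (-1.03 ± 0.06), AXL (-1.14 ± 0.04), EPHA2 (-0.37 ± 0.04) and DDR1 (-1.22 ± 0.06) were called lower, 4 of 10, where 43.0% of all genes were. INSR gave -0.045 ± 0.11 (adjusted p = 0.698, quasi-likelihood test). The EGFR call (adjusted p = 0.0427) is weak: leaving out any CAR or Combination library or JQ1 replicate 1 lost it (log2 0.17 to 0.21, adjusted p = 0.051 to 0.104), as did 4 of the other settings, among them total count scaling (log2 0.046).

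The interaction, the Combination change minus the sum of the CAR and JQ1 changes, tests whether the agents added up on the log2 scale. ERBB3, FGFR1 and DDR1 were called above the sum, 3 of 10, where 20.1% of all genes were, and AXL and EPHA2 below it, 2 of 10, where 18.2% were. EPHA2 departed most strongly in its test, with a sum of 0.27 against a measured -0.44 (interaction -0.71 ± 0.05, adjusted p = 3.4e-09, quasi-likelihood test). ERBB3 had a sum of -0.76 against 0.048 (0.81 ± 0.19, adjusted p = 0.00177), DDR1 -2.43 against -1.84 (0.59 ± 0.08, adjusted p = 1.41e-05) and FGFR1 0.64 against 1.05 (0.41 ± 0.05, adjusted p = 5.56e-06). For these 3 receptors CAR lowered the level in vehicle and gave changes of -0.03 to 0.02 on top of JQ1. AXL had a sum of -1.01 against -1.20 (-0.19 ± 0.05, adjusted p = 0.0045).

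For the other five the sum and the measured change lay closer together: EGFR 0.55 and 0.40, ERBB2 0.25 and 0.36, MET -0.61 and -0.75, IGF1R 1.04 and 1.10, and INSR -0.52 and -0.38. Their interactions were -0.15 ± 0.11, 0.11 ± 0.06, -0.14 ± 0.09, 0.065 ± 0.078 and 0.14 ± 0.14, with adjusted p from 0.152 to 0.541. The DMSO libraries decide some of these. Without DMSO replicate 3 ERBB2 (0.14, adjusted p = 0.0185), IGF1R (0.15, adjusted p = 0.0253) and INSR (0.29, adjusted p = 0.0131) passed as above the sum, and without DMSO replicate 2 EGFR (-0.23, adjusted p = 0.0494) and MET (-0.22, adjusted p = 0.0244) passed as below it. ERBB2 also passed with the correction for gene length (0.13, adjusted p = 0.0494).

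**Figure D4:**
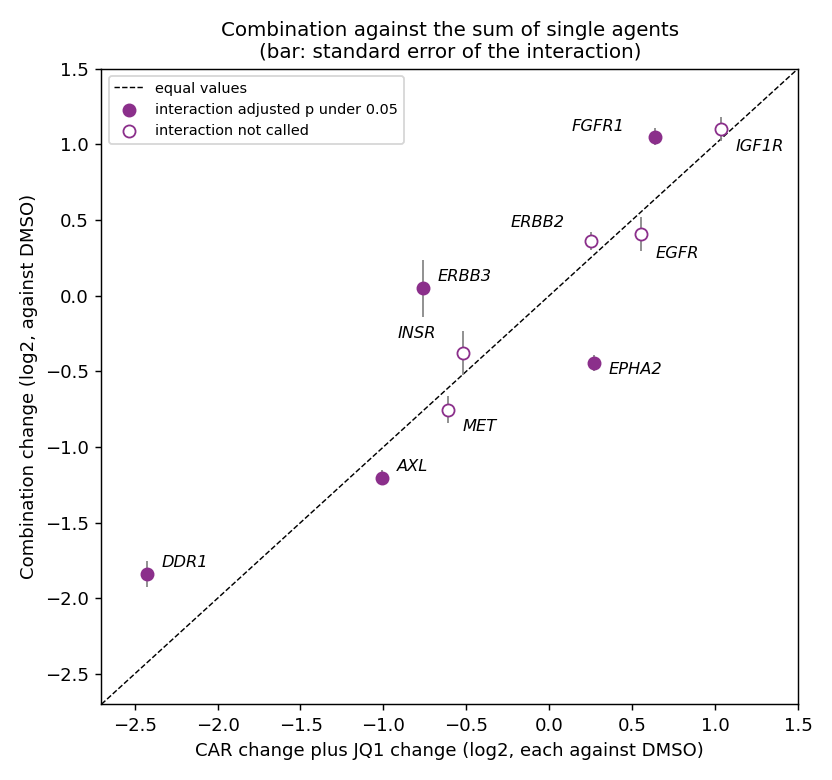
Measured log2 change of each receptor in Combination (vertical axis) against the sum of its changes in CAR and in JQ1 (horizontal axis), both against DMSO, with the standard error of the interaction as a bar, a dashed line at equal values and filled points where the interaction was called. EPHA2 lies below the line at 0.27 and -0.44, and ERBB3, FGFR1 and DDR1 lie above it.

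Beyond these 10, a list of 48 other receptor tyrosine kinases held 47 that were in the tables and 25 with enough counts to test; ROR2 was not analysed here. With CAR 6 of the 25 were called higher and 9 lower, with JQ1 11 and 9, and with both agents 11 and 9, with median log2 changes of -0.18, 0.17 and -0.12. Over all genes 27.3% were called higher and 30.1% lower with CAR, 41.5% and 42.2% with JQ1, and 42.6% and 42.8% with both, and the shares of these receptors (24% and 36%, 44% and 36%, 44% and 36%) lie near them. FGFR3, a relative of FGFR1, went from 4.05 ± 0.495 CPM in DMSO and 2.01 ± 0.30 in CAR to 62.1 ± 1.86 in JQ1 and 44.2 ± 2.43 in Combination (log2 4.05 ± 0.08 in JQ1). The TAM receptors moved apart. MERTK rose from 23.2 ± 1.38 to 74.4 ± 2.23 CPM in JQ1 (log2 1.80 ± 0.06), while TYRO3 fell from 54.5 ± 3.49 to 10.7 ± 0.675 CPM (-2.23 ± 0.08) and AXL fell as above.

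PDGFRB, a receptor for platelet-derived growth factor, stood at 33.4 ± 1.53 CPM in DMSO and 14.5 ± 0.772 with CAR. It stood at 95.1 ± 0.493 CPM with JQ1 and 37.3 ± 0.426 with both agents. It is also a fibroblast marker, and the 7 fibroblast markers summed to 41.1 to 42.8 CPM in DMSO and 98.6 to 98.8 CPM in JQ1, most of it PDGFRB itself. COL1A1, the highest of the collagen markers, went the other way, from 7.17 to 8.202 CPM in DMSO to 2.39 to 3.37 in JQ1, COL1A2 stood at 0.736 to 1.05 and 0.49 to 0.684 CPM, and COL3A1, DCN and LUM were at 0 to 0.164 CPM in every library. PTK7, a receptor with an inactive kinase that takes part in Wnt signalling, stood at 133 ± 3.33 CPM in DMSO and 67.2 ± 3.17 in CAR, against 138 ± 1.09 in JQ1 and 40.5 ± 1.38 in Combination. Added to JQ1, CAR lowered PTK7 by log2 -1.68 ± 0.05 (interaction -0.76 ± 0.06, adjusted p = 1.41e-08, quasi-likelihood test), the direction seen in EPHA2. EPHB4, an ephrin-B receptor, stood at 99.9 ± 5.15 CPM in DMSO, 59.1 ± 1.81 in JQ1 and 39.3 ± 1.56 in Combination.

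Among those with low counts, EPHA7 rose in JQ1 from 0.271 ± 0.145 to 2.02 ± 0.392 CPM and STYK1 fell from 9.83 ± 0.155 to 0.686 ± 0.271 CPM. CSF1R, the receptor for macrophage colony-stimulating factor, had a summed count of 144 in DMSO and 1 in Combination, a ratio of 143 after division by library totals (95% interval for counting error 25.3 to 5686). MUSK had 74 and 0 counts, at least 24.5-fold lower against a floor of 3 counts over the group, and the fitted medians of the list are the same with MUSK at this bound. Both genes were already lower with 1 agent. CSF1R changed by log2 -1.20 ± 0.21 in CAR and -4.15 ± 0.33 in JQ1, and MUSK by -1.10 ± 0.36 and -3.66 ± 0.55, all called. Combination against JQ1 was not called for CSF1R or MUSK (adjusted p = 0.0555 and 0.0701, quasi-likelihood test). Leukocyte markers (3 of 5 listed in the tables) summed to 0.157 to 0.932 CPM in every library.

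**Figure D5:**
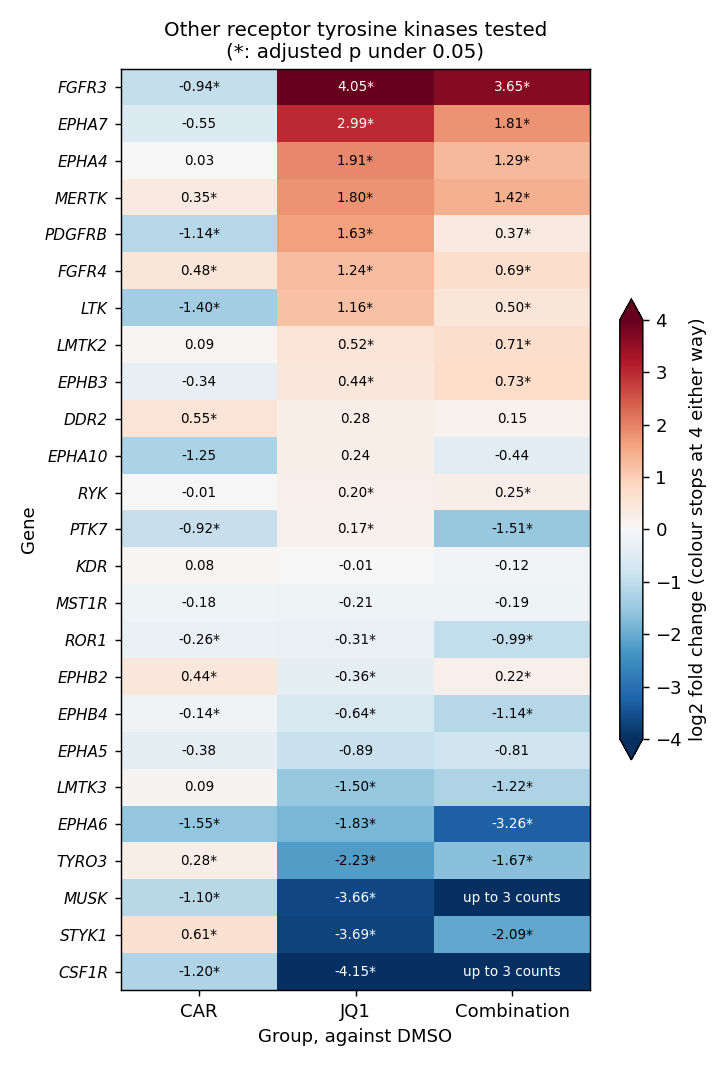
Log2 fold change against DMSO (colour and number) of the 25 other receptor tyrosine kinases tested, in rows, for CAR, JQ1 and Combination, in columns, with a star where the adjusted p was under 0.05. FGFR3 and EPHA7 are highest in JQ1, and the cells of CSF1R and MUSK in Combination, with up to 3 counts over the group, show no number and a colour at the end of the scale.

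Of 21 ligands of these receptors outside the EGF family, 13 were tested. These were TAM ligands, fibroblast growth factors, ephrin-A ligands and collagen chains. HGF and INS were not analysed here, and IGF1 and IGF2 did not pass the filter on low counts. The counts thus hold no ligand of MET, IGF1R or INSR. With CAR 2 of the 13 were higher and 8 lower, with JQ1 2 and 9, and with both agents 2 and 11, with median log2 changes of -0.21, -0.57 and -0.94. The shares called lower, 61.5%, 69.2% and 84.6%, stand beside 30.1%, 42.2% and 42.8% of all genes, and the share called higher, 15.4% in each, beside 27.3%, 41.5% and 42.6%. The AXL ligand GAS6 was at 231 ± 9.44 CPM in DMSO and 155 ± 2.45 with CAR. It was at 206 ± 9.68 CPM with JQ1 and 121 ± 4.02 with both agents. It fell in CAR (log2 -0.51 ± 0.04) and Combination (-0.72 ± 0.04) and was not called in JQ1 (-0.046 ± 0.041, adjusted p = 0.302, quasi-likelihood test), and PROS1, a TAM ligand too, fell from 32.6 ± 0.833 to 14.7 ± 1.42 CPM in Combination. The collagen IV chains, of the family that DDR1 binds, fell with it: COL4A2 went from 237 ± 5.40 to 54.1 ± 0.958 CPM in JQ1 and COL4A1 from 88.5 ± 7.40 to 21.99 ± 0.79 CPM.

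FGF1, a ligand of FGFR1, fell from 3.58 ± 0.591 to 0.148 ± 0.0706 CPM in JQ1, and FGF18, which binds other FGF receptors more strongly, rose from 0.575 ± 0.00762 to 6.35 ± 0.446 CPM. Among the ephrin-A ligands of EPHA2, EFNA3 rose in JQ1 (2.49 ± 0.252 to 9.90 ± 0.577 CPM). EFNA1 fell from 5.77 ± 0.749 CPM in DMSO to 3.73 ± 0.0974 in CAR, 3.86 ± 0.282 in JQ1 and 3.74 ± 0.288 in Combination. EFNA4 and EFNA5 fell in JQ1 too (log2 -0.92 ± 0.13 and -0.21 ± 0.06). On top of JQ1, CAR lowered 7 of the 13 ligands and raised none by edgeR's quasi-likelihood test (0 at an unadjusted p under 0.05, and 0 by DESeq2), where 25.9% of all genes were called lower and 26.0% higher, with GAS6 (log2 -0.67 ± 0.04) and PROS1 (-0.66 ± 0.09) among them.

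Of 24 adaptors and docking proteins 23 were tested, with 5 higher and 10 lower for CAR, 11 and 7 for JQ1, and 10 and 10 for both (medians -0.066, 0.089 and 0.038). Their shares called higher and lower were 21.7% and 43.5% for CAR (27.3% and 30.1% of all genes), 47.8% and 30.4% for JQ1 (41.5% and 42.2%) and 43.5% and 43.5% for both (42.6% and 42.8%). IRS2, which docks on IGF1R and INSR, rose in each group, from 69.8 ± 2.19 CPM to 88.8 ± 3.90 in CAR, 114 ± 1.72 in JQ1 and 153 ± 3.16 in Combination. Its relative IRS1 went the other way and was called lower in each. It went from 131 ± 15.2 CPM to 113 ± 1.51 in CAR, 85.9 ± 1.71 in JQ1 and 63.9 ± 1.75 in Combination. GRB2, the adaptor to RAS, rose in JQ1 from 185 ± 2.91 to 254 ± 4.19 CPM, and the PI3K regulatory subunit PIK3R1 from 16.8 ± 0.841 to 40.8 ± 0.792 CPM. SH2B3, an adaptor that limits signalling, fell from 263 ± 15.2 to 92.8 ± 0.802 CPM (log2 -1.39 ± 0.04). GRB7 fell in each drug group, from 2.49 ± 0.534 CPM to 1.43 ± 0.140 in CAR, 0.453 ± 0.0964 in JQ1 and 0.235 ± 0.0618 in Combination. For GRB7, Combination against JQ1 was not called (adjusted p = 0.119, quasi-likelihood test). In CAR the largest fall by its test was PIK3R2 (97.4 ± 2.33 to 58.1 ± 1.18 CPM), and PTPN11, the phosphatase SHP2 that relays receptor signals, rose (352 ± 25.4 to 459 ± 1.55 CPM).

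Of 26 negative regulators and turnover factors 25 were tested, with 7 higher and 5 lower for CAR, 12 and 9 for JQ1, and 13 and 9 for both (medians 0.025, 0.085 and 0.088). These are 28% and 20% for CAR (27.3% and 30.1% of all genes), 48% and 36% for JQ1 (41.5% and 42.2%) and 52% and 36% for both (42.6% and 42.8%). SOCS2, a feedback inhibitor, fell from 18.0 ± 0.373 CPM to 1.71 ± 0.417 in JQ1 and 0.978 ± 0.0579 in Combination (log2 -3.27 ± 0.12 and -3.99 ± 0.14). The ubiquitin ligase NEDD4L fell in JQ1 from 350 ± 26.3 to 147 ± 2.92 CPM. RNF41, a ligase known to act on ERBB3, rose from 41.3 ± 1.42 to 82.6 ± 2.98 CPM, and the sorting factor STAM2 from 51.0 ± 2.60 to 97.6 ± 2.80 CPM. PTPRJ, a receptor-type phosphatase, fell in CAR from 208 ± 11.5 to 117 ± 1.51 CPM. The late endosome GTPase RAB7A was highest in Combination (246 ± 8.12 CPM in DMSO, 312 ± 9.76 in JQ1 and 387 ± 10.2 in Combination).

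Of 24 receptor partners and processing factors 21 were tested, with 6 higher and 10 lower for CAR, 10 and 9 for JQ1, and 9 and 11 for both (medians -0.19, 0.078 and -0.14). In shares, 28.6% were higher and 47.6% lower for CAR beside 27.3% and 30.1% of all genes, 47.6% and 42.9% for JQ1 beside 41.5% and 42.2%, and 42.9% and 52.4% for both beside 42.6% and 42.8%. The heparan sulfate carrier SDC1 fell in JQ1 from 164 ± 3.57 to 34.5 ± 1.81 CPM and caveolin CAV1 from 1055 ± 34.6 to 293 ± 8.36 CPM. The co-receptor NRP1 fell in each drug group, from 215 ± 6.49 CPM in DMSO to 156 ± 3.25 with CAR, 115 ± 0.0691 with JQ1 and 45.2 ± 2.91 with both (interaction -0.87 ± 0.06, adjusted p = 1.63e-09, quasi-likelihood test). IGFBP4, which binds insulin-like growth factors, fell in CAR, JQ1 and Combination (log2 -0.74 ± 0.04, -1.03 ± 0.04 and -1.91 ± 0.04). Its interaction was not called (-0.13 ± 0.06, adjusted p = 0.0747, quasi-likelihood test). ADAM17, a sheddase, rose in CAR, JQ1 and Combination (0.72 ± 0.045, 0.37 ± 0.046 and 0.96 ± 0.045). The chaperone HSP90AA1, on which many of these kinases depend, rose by 0.49 ± 0.04 in CAR, 0.54 ± 0.04 in JQ1 and 0.65 ± 0.04 in Combination. Its relative HSP90AB1, at 2309 CPM in DMSO against 2121 for HSP90AA1, rose in CAR (0.38 ± 0.03). HSP90AB1 fell in JQ1 (-0.26 ± 0.03) and in Combination (-0.19 ± 0.03).

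For each receptor, the gene with the most similar set of 3 changes against DMSO was found among 10268 candidates, by the root mean square (RMS) difference in log2. The nearest were CREB1 for ERBB2 (RMS 0.0081), JOSD2 for EGFR (0.0095), PRSS23 for AXL (0.021), DHX9 for MET (0.022) and ZNF493 for IGF1R (0.025). FGFR1 was nearest to IDS (0.029), INSR to CCHCR1 (0.030), DDR1 to ZNF362 (0.037) and ERBB3 to CCDC17 (0.042). EPHA2 had the least similar neighbour, SKA2 (0.080), which changed by 0.038 in CAR, 0.29 in JQ1 and -0.40 in Combination. These are descriptions over 4 groups that share the DMSO libraries.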

How the data were processed

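RNA was sequenced in 12 libraries of MDA-MB-231 cells, 3 per group, with a stranded mRNA kit, per the labels' protocols. The values the authors deposited are raw read counts for each gene symbol. Trimmomatic, HISAT2, HTSeq and hg38 appear in the submitters' processing notes. For annotation and strand setting, nothing is given in the sources used here. The tests used edgeR 4.0.16 in R 4.3.3: filterByExpr (minimum count 10, minimum total 15) kept 12645 of 16384 genes, and a robust quasi-likelihood model with TMM factors and 8 residual degrees of freedom was fitted to all 12 libraries. The SE is the absolute log2 change over the root of F, and calls used a Benjamini-Hochberg adjusted p under 0.05. Alternatives were DESeq2 1.42.0, other scalings, no filter, fewer groups, a replicate block, a length offset and each library left out. Positions and lengths come from GENCODE v29 (97.3% of symbols). Scripts were tested on simulated data.

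All 10 receptors were named. From each list, up to 4 genes per comparison with the smallest adjusted p, and any with a called change of at least 2 (log2), could be named. Outside this rule, IRS1, HSP90AB1, EFNA4 and EFNA5 were named as relatives of named genes, after their values were seen. HGF, INS, IGF1 and IGF2 were named because they were not tested. The similar gene was the nearest non-member with at least 5 CPM on average. The receptors and lists were chosen with earlier results of these data known.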

Additional observations from a re-analysis of the deposited data

Results flagged for a closer look

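For 5 of the 10 receptors the effect of CAR differed with and without JQ1 by the interaction test of edgeR (adjusted p from 3.4e-09 to 0.0045). Of the 10, 3 were called above the sum, where 20.1% of all genes were, and 2 below it, where 18.2% were. The difference, the CAR effect with JQ1 minus the effect without, was 0.81 for ERBB3 (log2 0.022 against -0.79), 0.59 for DDR1 (-0.030 against -0.62) and 0.41 for FGFR1 (0.019 against -0.39). It was -0.71 for EPHA2 (-0.79 against -0.077) and -0.19 for AXL (-0.26 against -0.063). These calls held without DMSO replicate 3 and without Combination replicate 1, the libraries that stood apart. No receptor was tested for a library far from the others, since groups held 3 libraries.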

How the results depend on the processing

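The number of genes called stayed within 1.5 times the main count in all 125 alternatives. Of 530 member fold changes under other settings 488 kept direction and side of the threshold, and of 720 with 1 library left out 689 did. In CAR against DMSO the receptors called higher went from 2 to 1 with total count scaling and without the filter, and those lower from 5 to 8 with total count and upper-quartile scaling. In Combination against JQ1 those higher went from 0 to 3 with the length offset, alone or with the replicate block, and to 2 in a fit to these 2 groups, and those lower from 2 to 5 with total count scaling. The cause was not tested. With 1 library left out the receptors called ran from 1 to 2 higher and 4 to 8 lower in CAR, 0 to 2 higher in Combination against JQ1, and 3 to 6 above and 2 to 4 below the sum in the interaction. For the lists the ranges were 3 to 7 other receptors above the sum, 1 to 2 ligands higher and 3 to 8 negative regulators lower in CAR, and 3 to 8 partners higher in Combination against JQ1.

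Signs that turned belonged to changes that were not called in the main test. ERBB3 in JQ1 was -0.094 with total count scaling, -0.034 with upper-quartile scaling, -0.057 with the length offset and -0.053 with the length offset and replicate block, and -0.036, -0.021 and -0.026 without DMSO replicate 1, DMSO replicate 2 or JQ1 replicate 3 (up to 0.14 without DMSO replicate 3). ERBB3 in Combination was -0.16 and -0.024 with total count and upper-quartile scaling, and -0.014 and -0.00011 without DMSO replicate 1 or 2 (up to 0.16 without DMSO replicate 3). In Combination against JQ1, total count scaling gave EGFR -0.022, ERBB3 -0.066 and FGFR1 -0.068, and ERBB3 was -0.033 and DDR1 0.024 without JQ1 replicate 2 (0.076 and -0.076 without JQ1 replicate 3). With the length offset, alone and with the replicate block, IGF1R was 0.057 and 0.057 and DDR1 0.018 and 0.019. The longest transcript in place of all exons gave 41.4 CPM per kilobase for EGFR, 24.4 for ERBB2, 0.979 for ERBB3, 321 for AXL, 21.9 for FGFR1, 5.93 for IGF1R, 80.1 for EPHA2 and 20.9 for DDR1, in the same order of genes.

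Total count scaling moved the split of all genes called from 3449 higher and 3801 lower to 2636 and 4738 in CAR, from 5386 and 5415 to 4216 and 6501 in Combination, and from 3292 and 3275 to 2229 and 4554 in Combination against JQ1. The replicate numbers did not pair the libraries: same-numbered libraries correlated at -0.045 to 0.056 over 18 pairs, and 2 of 12 libraries correlated best with their own number. With the replicate block 7221 genes were called in CAR against 7250 without it, EGFR in CAR was 0.22 (adjusted p = 0.00959), and no receptor changed its call. Depth limits ERBB3 most, with 54 to 127 counts per library.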

Other observations

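The other 22 receptor tyrosine kinases in the tables had too few counts to pass the filter. The highest was TIE1, at 0.0546 to 0.482 CPM with counts in every library (18 over the DMSO libraries, 20 in CAR, 12 in JQ1 and 15 in Combination). ERBB4, the fourth member of the ERBB family, had 6 counts over the DMSO libraries, 0 in CAR, 15 in JQ1 and 4 in Combination, and was at 0 in 3 libraries. FGFR2 had 1, 1, 3 and 6 counts and KIT 5, 3, 2 and 2. ALK, RET, NTRK3 and EPHB1 had 1 count each over all 12 libraries. At this depth 3 counts are 0.158 CPM in DMSO replicate 1, so each value rests on few reads. Without the filter 18 of the 22 could be tested by edgeR's quasi-likelihood test, and the calls, named after their values were seen, were these. PDGFRA (9 counts over the DMSO libraries, 0 in JQ1 and 1 in Combination) was lower in JQ1 (adjusted p = 0.00611) and in Combination (adjusted p = 0.0419), and EPHB6 (7, 0 and 0) in both as well (adjusted p = 0.0275 and 0.0297). TEK (9 and 0) was lower in JQ1 (adjusted p = 0.0171). ERBB4 was lower in CAR than in DMSO (adjusted p = 0.0299) and higher in Combination than in CAR (adjusted p = 0.0399).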
